A study of Mus musculus with 12 samples.

Results

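Alpha-fetoprotein (Afp) and 5 further genes, Ly6d, H19, Igf2, Gpc3 and Dlk1, were followed in the livers of mice undergoing carbon tetrachloride (CCl4) fibrosis with or without knockdown of lnc-LFAR1, a long non-coding RNA enriched in liver. The members were chosen by their measured values: Afp and Ly6d were selected on their rise of more than 20-fold with CCl4 and on their staying at the oil level in most of the arrays that received both CCl4 and the hairpin, and the other 4 were added as genes of the fetal liver program. They are 6 of 18194 features measured, and all 6 were measured. Livers of 4 groups of 3 mice each were compared by expression microarray (Affymetrix 3′ arrays), where a gene is read by 1 or more probe sets. All groups were male Balb/c mice that were 8 weeks old when obtained. Injections began after acclimatization and ran for 6 weeks in all, so the livers came from older mice. Every mouse received a lentivirus by tail vein 2 weeks after its first injection. The shLFAR1+CCl4 group had a virus carrying a short hairpin against lnc-LFAR1 (Lenti-shLFAR1) and 5% CCl4 in olive oil at 0.3 ml/kg, given 3 times per week for 4 more weeks. The NC+CCl4 group had a control virus (Lenti-NC) and the same CCl4. The shLFAR1 group had the hairpin virus and olive oil alone, and the NC group had the control virus and olive oil alone. The hairpin was 1 sequence driven by a promoter that is not restricted to a cell type, so every liver cell that took up the virus could carry it. Lnc-LFAR1 was not analysed here on any named probe set, so its knockdown was not checked in these arrays.

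Afp is the albumin of fetal plasma. It lies beside the albumin gene and is made by the hepatoblasts and yolk sac of the fetus, is shut down in liver after birth by the repressors Zhx2, Zbtb20 and Zfhx3, and is made again in regenerating liver and in liver cancer. H19 is a non-coding RNA that shares enhancers with Igf2, its imprinted neighbour, and both are high in fetal liver and low in adult liver. Dlk1, a transmembrane protein of the Notch ligand family, marks fetal hepatoblasts, and Gpc3, a glypican anchored to the cell surface, is a marker of liver cancer. Ly6d is a small GPI-anchored protein of the Ly6 family, best known on B-cell progenitors and squamous epithelium. It stands here because it was selected on the same pattern of values as Afp, not as a gene of the fetal liver program. The substrain BALB/cJ carries a weakened Zhx2 allele that leaves Afp detectable in the adult. The labels give Balb/c without a substrain.

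The sequences that bear on these genes are the Afp and Gpc3 promoters and the microRNA that is cut from H19. RefSeq promoters (250 bases before to 50 after the start, build GRCm38.p6) were held for 4 of the 6 genes, with 1 entry for Afp, Gpc3 and Dlk1 and 4 for Igf2. Ly6d and H19 had no entry. The Afp promoter, chr5:90490464-90490763 on the plus strand, and the Gpc3 promoter, chrX:52613925-52614224 on the minus strand, are shown because both genes were higher in NC+CCl4 than in NC livers and their G and C content is the lowest and the highest of these windows. Capitals mark the motifs that were found, and the Gpc3 window held none of the 8 searched.
Afp promoter: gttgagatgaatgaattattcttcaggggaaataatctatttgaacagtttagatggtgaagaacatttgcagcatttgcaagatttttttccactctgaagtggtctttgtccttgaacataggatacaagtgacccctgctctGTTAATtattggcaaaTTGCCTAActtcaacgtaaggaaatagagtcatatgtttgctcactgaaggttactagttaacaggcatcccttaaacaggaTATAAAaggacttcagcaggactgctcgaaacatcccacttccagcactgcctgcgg
Gpc3 promoter: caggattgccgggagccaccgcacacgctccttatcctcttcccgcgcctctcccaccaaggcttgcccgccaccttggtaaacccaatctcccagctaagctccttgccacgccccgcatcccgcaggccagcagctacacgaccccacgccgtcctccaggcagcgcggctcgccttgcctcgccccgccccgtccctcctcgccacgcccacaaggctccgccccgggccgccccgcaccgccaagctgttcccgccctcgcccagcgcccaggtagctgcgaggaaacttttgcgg
Read 5′ to 3′, the Afp window held GTTAAT, the core of an HNF1 site, whose first base lies 105 bases before the start. It also held TTGCNNAA, a C/EBP pattern, as TTGCCTAA, 89 bases before the start, and TATAAA 7 bases before it. On both strands of all 32851 promoters, GTTAAT occurred in 7.1%, TTGCNNAA in 10.8% and TATAAA in 13.6%. The Afp window had 40.0% G and C, the Gpc3 window 70.7%, and the median promoter 52.7%. The Dlk1 window held TGTTTAC, a FOXA pattern found in 3.65% of promoters, at 87 and 67 bases before the start. GGAATG, a TEAD pattern found in 14.7%, was in 3 of the 4 Igf2 windows. CAAGGTCA (NR5A2, 1.56% of promoters), TGANTCA (AP-1, 7.81%) and CAAAGTCC (HNF4, 1.42%) were in no window of these genes. Only these letters were searched, so variant forms of a site would be missed, and a missing match does not mean a missing site. The 3 matches in the Afp window do not overlap, and a match says only that the letters are present. The mature strands of miR-675, which lies inside H19, are given with the seed, bases 2 to 8, in capitals. The array did not measure them.
mmu-miR-675-5p: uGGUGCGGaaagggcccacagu
mmu-miR-675-3p: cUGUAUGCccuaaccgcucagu
The seeds of the 2 strands differ, so they fall in no common seed group.

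Several arrays stood apart. On the first principal component of all features, which held 56.3% of the variance, shLFAR1+CCl4 replicate 3 lay at 39.2, inside the NC+CCl4 range of 34.8 to 48.8. Replicates 1 and 2 of shLFAR1+CCl4 lay at -6.8 and -9.7, nearer to the oil arrays at -26.7 to -20.4. NC+CCl4 replicate 1 had the largest gap between the 3′ and 5′ probe sets of actin and Gapdh, a sign of RNA quality, at 1.314 and 0.716 log2 units. The other arrays lay between 0.704 and 1.066 for actin and between -0.205 and 0.033 for Gapdh. Results that rest on either array are therefore given with and without it. Values are on the log2 scale set by the authors, and levels are compared only within a probe set. The hepatocyte markers stayed between 13.16 and 13.39 in every array (mean log2 of 6 of 7 listed genes).

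Afp and Ly6d split the arrays into high and low with nothing between. Afp read 3.17, 3.59 and 10.54 log2 units in the 3 shLFAR1+CCl4 livers and 9.29, 8.85 and 9.11 in the 3 NC+CCl4 livers. The oil livers read 3.28, 3.08 and 3.18 in shLFAR1 and 3.32, 3.53 and 2.78 in NC. All 3 NC+CCl4 arrays and shLFAR1+CCl4 replicate 3 were high, and that replicate was the highest array of the 12. The other 2 shLFAR1+CCl4 arrays lay at or near the oil range. Ly6d followed the same split, with 4.50, 4.84 and 9.51 in shLFAR1+CCl4 and 9.45, 8.79 and 9.29 in NC+CCl4. The oil livers had 4.71, 4.61 and 4.47 for Ly6d in shLFAR1 and 4.29, 4.68 and 4.60 in NC. For both genes the order of group means was NC+CCl4, shLFAR1+CCl4, then the oil groups, but the shLFAR1+CCl4 mean (5.77 ± 4.14 for Afp, SD, n = 3) describes no array of that group. The oil groups overlapped each other for both genes.

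**Figure D1:**
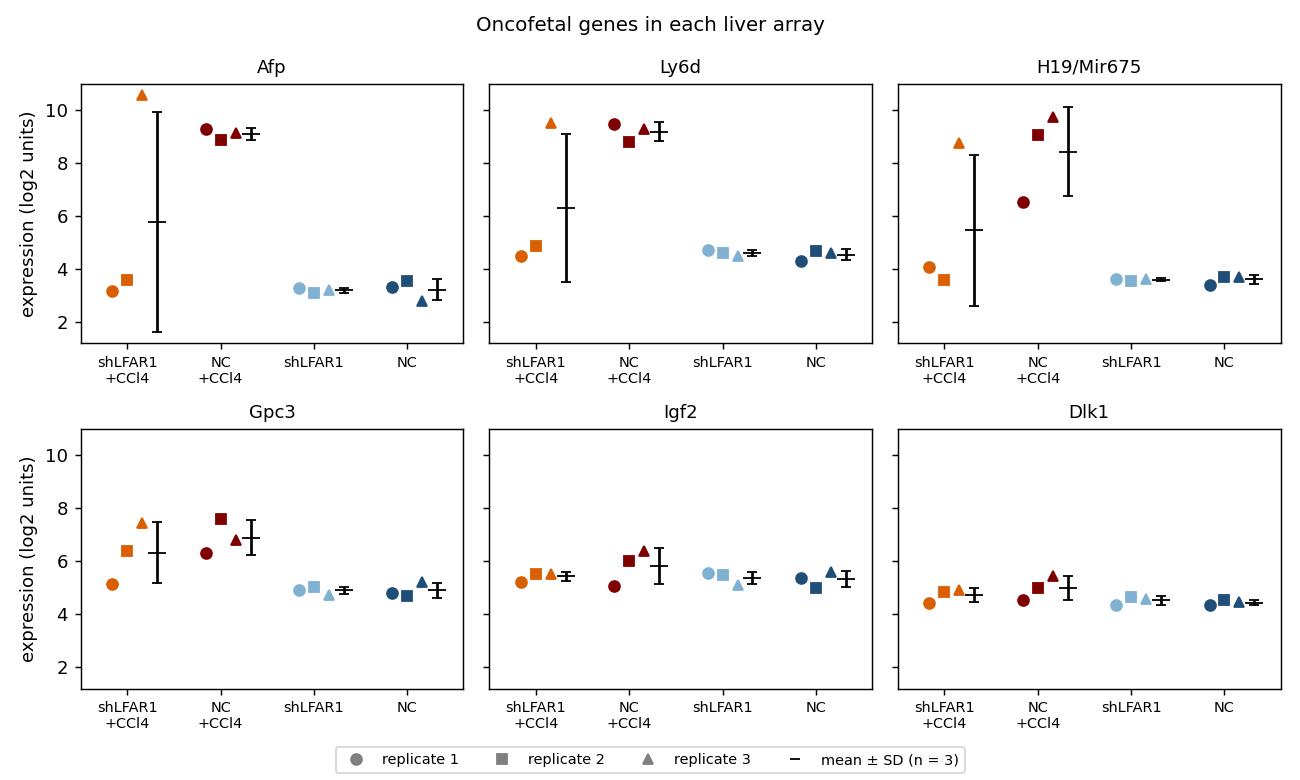
Expression of the 6 genes in each array, in log2 units, in the order shLFAR1+CCl4, NC+CCl4, shLFAR1 and NC, with each replicate as a point and the mean ± SD of 3 mice as a bar. Afp and Ly6d are high in NC+CCl4 and in shLFAR1+CCl4 replicate 3 and lie low in the other 8 arrays.

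Afp was higher in NC+CCl4 than in NC livers by 5.87 ± 1.37 log2 units (SE), or 58.7-fold. Ly6d was higher by 4.65 ± 0.93, or 25.1-fold. These changes selected the 2 genes and carry no test here. The SE of each change pools the spread of all 4 groups, also of groups outside the comparison. For Afp the SD was 4.14 in shLFAR1+CCl4, against 0.22 in NC+CCl4 and 0.39 in NC. Ly6d had SDs of 2.8, 0.34 and 0.21 in the same order. The value nearest above the 20-fold choice was that of Ly6d, H19 lay just above it at 28.3-fold, and Gpc3 lay below at 3.98-fold. Without NC+CCl4 replicate 1 the changes were 5.77 for Afp and 4.51 for Ly6d. The NC values of Afp and H19 lay below the NC array medians of 4.43 to 4.49, so their folds rest on a low baseline. In liver tissue, more cells of a type and more RNA per cell cannot be told apart.

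Afp is read by 5 probe sets, and they did not agree. The 3 with the highest means were higher in NC+CCl4 than in NC. The second of them read 3.96, 4.21 and 9.24 in shLFAR1+CCl4 and 7.83, 7.49 and 7.55 in NC+CCl4, against 3.89, 3.97 and 4.21 in shLFAR1 and 3.75, 3.78 and 3.56 in NC. The third read 2.78, 2.89 and 8.84 in shLFAR1+CCl4 and 6.85, 6.71 and 7.11 in NC+CCl4. In all 3 of these the highest array was shLFAR1+CCl4 replicate 3. The fourth stayed between 3.49 and 3.79 and the fifth between 2.53 and 3.29 over all 12 arrays. When the 5 were averaged, the Afp change in NC+CCl4 against NC came to 2.85 log2 units, because the flat probe sets pull it down.

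**Figure D2:**
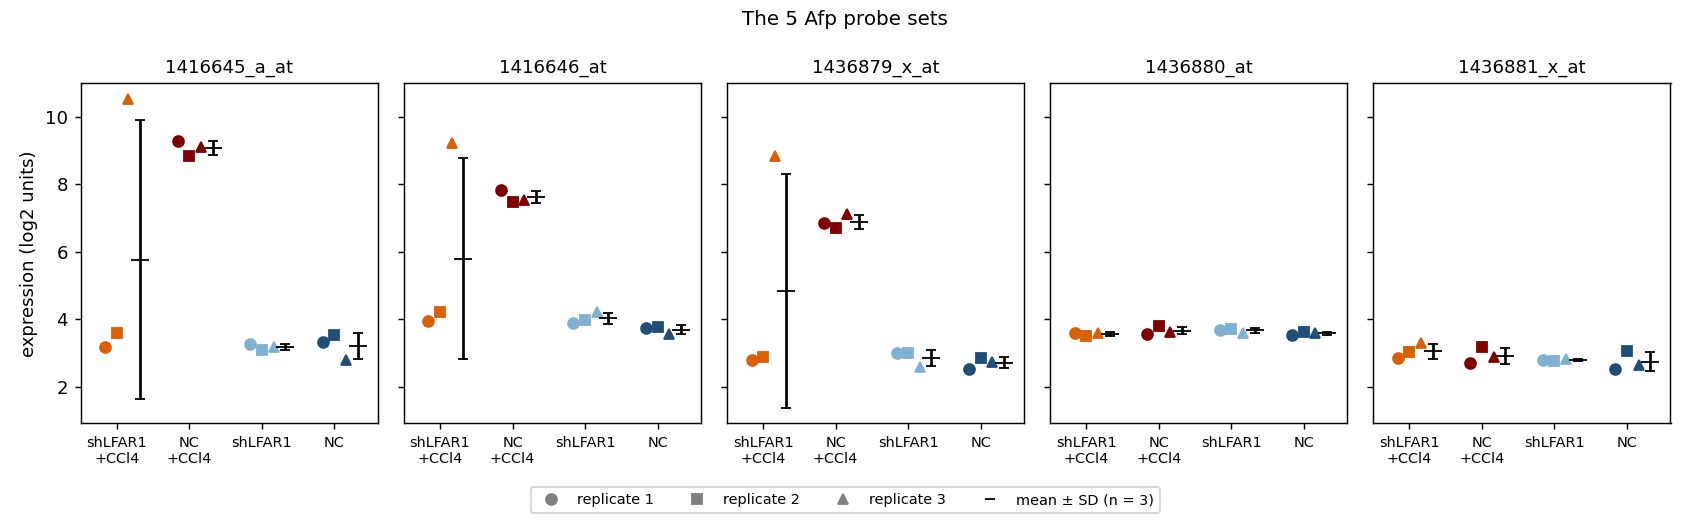
The 5 Afp probe sets in each array (log2 units), ordered by mean, with replicates as points and the mean ± SD of 3 mice as a bar. The first 3 carry the CCl4 pattern and the last 2 stay below 4 log2 units in every array.

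H19 was read by 1 probe set, annotated to both H19 and Mir675. It stood at 4.05, 3.56 and 8.74 in shLFAR1+CCl4 livers and at 6.51, 9.03 and 9.71 in NC+CCl4 livers. In the oil livers it stood at 3.62, 3.54 and 3.61 in shLFAR1 and at 3.40, 3.70 and 3.69 in NC. The same 4 arrays were high as for Afp, and the lowest of them was NC+CCl4 replicate 1, the array with the large 3′ to 5′ gap. The H19 change in NC+CCl4 against NC was 4.82 ± 1.09 log2 units, and 5.78 without that array. Whether RNA quality had a part in that array's value was not tested.

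Igf2, the imprinted neighbour of H19, moved little. It read 5.21, 5.51 and 5.52 in shLFAR1+CCl4 and 5.06, 6.0 and 6.39 in NC+CCl4, against 5.53, 5.45 and 5.10 in shLFAR1 and 5.36, 4.98 and 5.58 in NC. NC+CCl4 replicates 2 and 3 lay above every other array, while replicate 1 lay within the oil range, so the groups overlap. Its change was 0.51 ± 0.28 log2 units in NC+CCl4 against NC and 0.89 without NC+CCl4 replicate 1, but 0.22 without replicate 3. A further Igf2 probe set ran the other way, at 3.44, 3.57 and 3.65 in NC+CCl4 and 3.77, 3.70 and 3.90 in NC, and it was not the one chosen.

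Gpc3 was higher with CCl4 in a more graded way. It stood at 5.14, 6.39 and 7.42 in shLFAR1+CCl4 livers and at 6.28, 7.58 and 6.77 in NC+CCl4 livers. In the oil livers it stood at 4.92, 5.01 and 4.73 in shLFAR1 and at 4.78, 4.68 and 5.19 in NC. All 3 NC+CCl4 arrays lay above all 6 oil arrays, and 2 of the 3 shLFAR1+CCl4 arrays did too. shLFAR1+CCl4 replicate 2, low for Afp, Ly6d and H19, was high for Gpc3. The Gpc3 change was 1.99 ± 0.45 log2 units, or 3.98-fold, in NC+CCl4 against NC, and 2.29 without NC+CCl4 replicate 1. The 4 mesothelial markers (4 of 4 measured) had array means of 4.69 to 6.03 in shLFAR1+CCl4 and 5.20 to 5.73 in NC+CCl4, against 3.91 to 5.15 in shLFAR1 and 4.50 to 5.12 in NC, with the highest value of all in shLFAR1+CCl4 replicate 2. Their part in the Gpc3 values was not tested.

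Dlk1 read 4.42, 4.83 and 4.92 in shLFAR1+CCl4 and 4.53, 4.99 and 5.42 in NC+CCl4, against 4.33, 4.65 and 4.57 in shLFAR1 and 4.32, 4.51 and 4.46 in NC. NC+CCl4 replicate 3 was the highest array, and the NC+CCl4 group lay just above NC without touching it. The change was 0.55 ± 0.20 log2 units, or 1.46-fold, with 0.77 without NC+CCl4 replicate 1 and 0.33 without NC+CCl4 replicate 3. The other Dlk1 probe set stayed between 3.84 and 4.48.

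Across all features, 13.1% (2381 of 18194) passed an adjusted p of 0.05 (limma with Benjamini-Hochberg adjustment) in NC+CCl4 against NC, 7.66% upward and 5.42% downward. Leaving out NC replicate 1 gave 1262 calls, and leaving out NC replicate 2 gave 1321. Afp, Ly6d, H19 and Gpc3 were 4 of 6 called upward in that comparison, and Igf2 and Dlk1 were not. Since Afp and Ly6d were selected on this contrast, nothing is read from the count. With only 3 mice a group, the number of arrays limits the precision of each change.

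With the hairpin virus under CCl4, 2 of 3 livers lay below all NC+CCl4 livers for Afp, Ly6d and H19, 1 did for Gpc3 and for Dlk1, and none did for Igf2. Against NC+CCl4, the shLFAR1+CCl4 livers differed by -3.32 log2 units for Afp, -2.89 for Ly6d, -2.97 for H19, -0.56 for Gpc3, -0.40 for Igf2 and -0.25 for Dlk1. Since Afp and Ly6d were picked for low values in most shLFAR1+CCl4 arrays, these differences are a description, and their direction was fixed by the choice. Their size depended on single arrays. Afp came to -5.70 without shLFAR1+CCl4 replicate 3, and to -2.02 and -2.23 without replicate 1 and replicate 2 of that group. Ly6d came to -4.50 without replicate 3, and to -2.0 and -2.17 without replicates 1 and 2. H19 came to -4.62 without replicate 3, to -2.27 and -2.02 without replicates 1 and 2, and to -3.92 without NC+CCl4 replicate 1. Afp and Ly6d were at -3.21 and -2.75 without NC+CCl4 replicate 1. Gpc3 came to -1.11 without shLFAR1+CCl4 replicate 3 and turned to 0.03 without replicate 1, and it was -0.86 and -0.21 without NC+CCl4 replicates 1 and 2. Igf2 ranged from -0.78 without NC+CCl4 replicate 1 to -0.12 without NC+CCl4 replicate 3, and was -0.46 without shLFAR1+CCl4 replicate 3. Dlk1 ranged from -0.48 without NC+CCl4 replicate 1 to -0.03 without NC+CCl4 replicate 3, and was -0.10 and -0.35 without shLFAR1+CCl4 replicates 1 and 3. None of the 6 was called in that comparison, against 0.291% of all features (53, and 1328 without shLFAR1+CCl4 replicate 3). The same arrays set against shLFAR1 on oil gave 2.59 log2 units for Afp, 1.69 for Ly6d, 1.86 for H19, 1.43 for Gpc3, 0.21 for Dlk1 and 0.06 for Igf2. Without shLFAR1+CCl4 replicate 3 the values were 0.20, 0.07 and 0.22 for Afp, Ly6d and H19, and 0.88 for Gpc3, with 0.11 for Dlk1 and 0.00 for Igf2. Without replicate 1 of that group Afp and Ly6d came to 3.89 and 2.58, and without replicate 2 H19 came to 2.81. None of the 6 was called there, where 0.407% of features (74) were. The comparison with NC+CCl4 and the one with shLFAR1 share the shLFAR1+CCl4 arrays, so their values are not independent. For the difference between the CCl4 change under the hairpin virus and that under the control virus, 0.022% of features (4) were called and none of the 6.

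On oil no difference between the viruses was detected for the 6 genes. The difference between these groups, shLFAR1 against NC, was not a criterion of the choice and was tested. The oil arrays did set the level against which Afp and Ly6d were chosen, and earlier results of these data were known. The test is therefore not fully independent of the choice. The differences were -0.03 log2 units for Afp, 0.07 for Ly6d, -0.01 for H19, 0.05 for Igf2, 0.00 for Gpc3 and 0.09 for Dlk1, each with an adjusted p of 1.0 in limma. The test used the spread of all 4 groups, with SEs of 1.37 for Afp, 1.09 for H19, 0.93 for Ly6d and 0.2 for Dlk1. It could therefore miss sizeable differences for Afp, H19 and Ly6d. On oil Afp and H19 also lay below the array medians of 4.43 to 4.49, and no detection calls came with the values. Differences at such low levels may not show. The SE of the oil arrays alone, which the test did not use, was between 0.10 for H19 and 0.23 for Afp. The groups overlapped for all 6 genes. Of all features 0.0% (0) were called in limma, with 504 at an unadjusted p of under 0.05.

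Cell type markers moved with these values and are given beside them. The stellate cell and fibroblast markers (6 of 6 measured) averaged 7.24, 7.35 and 8.72 log2 units in shLFAR1+CCl4 and 9.14, 9.14 and 8.84 in NC+CCl4, against 6.25 to 6.85 in shLFAR1 and 6.27 to 6.61 in NC. The macrophage markers (4 of 4) ran from 7.69 to 8.88 in shLFAR1+CCl4 and from 8.50 to 9.30 in NC+CCl4, against 7.22 to 7.34 in shLFAR1 and 7.26 to 7.48 in NC. The proliferating cell markers (4 of 5) averaged 4.12, 4.12 and 7.18 in shLFAR1+CCl4 and 9.07, 6.23 and 8.68 in NC+CCl4, against 3.86 to 4.25 in shLFAR1 and 4.14 to 4.17 in NC. So the arrays high for Afp also had the highest means of all 3 lists, and the part of these lists in the Afp and Ly6d values was not tested. In NC+CCl4 against NC, 5 of 6 stellate, 3 of 4 macrophage and 4 of 4 measured proliferation markers were called upward, against 7.66% of all features. Clec4f, a macrophage marker, averaged 8.34 in NC+CCl4 and 8.27 in NC, and Des, a stellate cell marker, 6.39 and 6.11. The biliary epithelium markers (6 of 7 measured) averaged 4.71 to 4.89 in shLFAR1+CCl4 and 4.87 to 5.06 in NC+CCl4, against 4.35 to 4.67 in shLFAR1 and 4.42 to 4.52 in NC. The list mean was thus higher in all CCl4 arrays, but its genes did not all follow. Pkhd1 averaged 5.66 in NC+CCl4 against 4.40 in NC, while Cftr averaged 2.54 against 2.59. The plasmacytoid dendritic cell markers (3 of 3) ran from 6.13 to 6.25 in shLFAR1+CCl4 and from 6.22 to 6.49 in NC+CCl4, against 6.05 to 6.20 in shLFAR1 and 6.07 to 6.19 in NC. In NC+CCl4 against NC, 1 gene of each of these last lists was called upward, and the part of either list was not tested. For the cells Ly6d is best known in, B-cell markers (6 of 7 measured) were 4.14 to 4.29 in shLFAR1+CCl4, 4.02 to 4.22 in NC+CCl4, 4.18 to 4.38 in shLFAR1 and 4.18 to 4.29 in NC. The squamous markers (4 of 4) were 3.60 to 3.95 in every array, and pancreatic acinar markers (3 of 4) were 4.20 to 4.41.

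**Figure D3:**
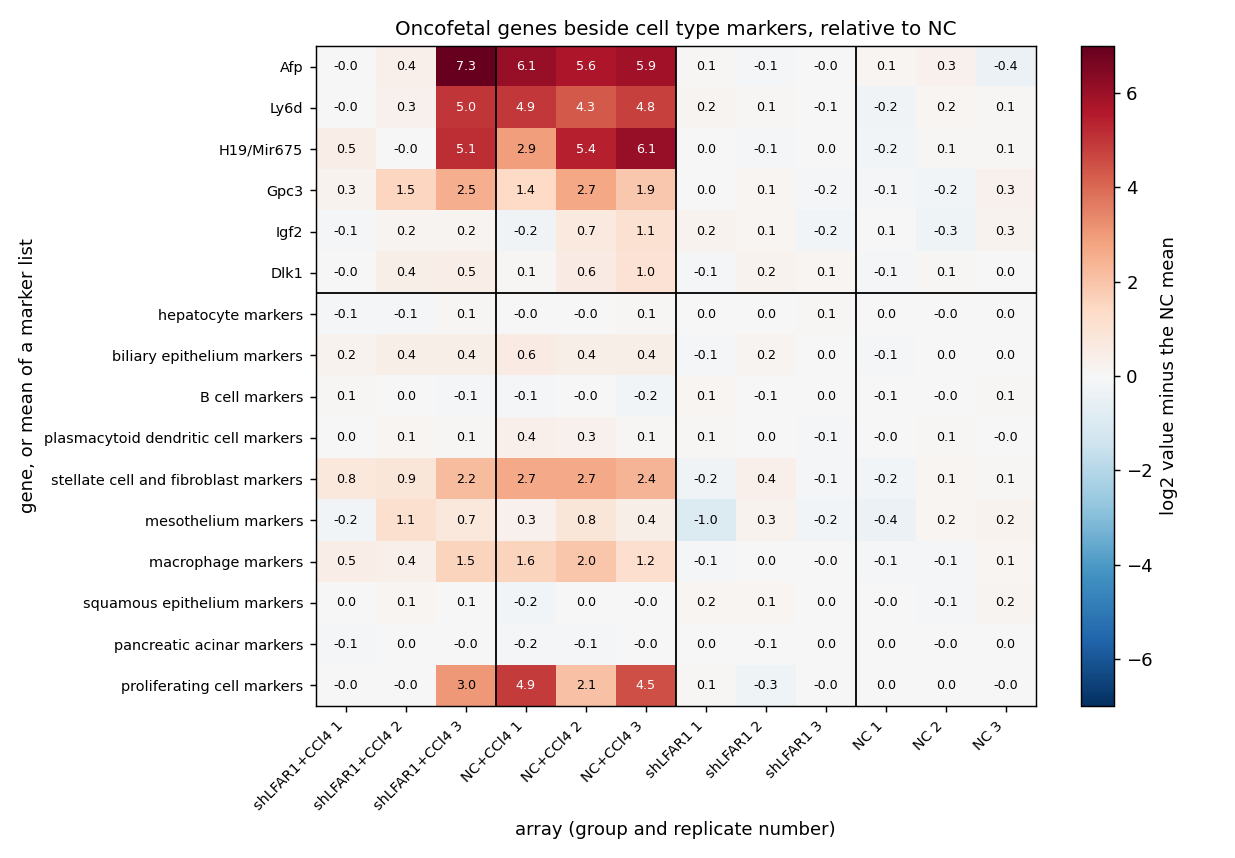
Log2 value of each gene, or the mean of a marker list, minus the NC mean, by array (columns in the order shLFAR1+CCl4, NC+CCl4, shLFAR1, NC). The high Afp, Ly6d and H19 cells, with 7.3, 5.0 and 5.1 in shLFAR1+CCl4 replicate 3, share their columns with raised stellate, macrophage and proliferation markers, while hepatocyte markers run from -0.13 to 0.10.

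The genes whose values ran closest to Afp over the 12 arrays were Pqlc3 (Pearson r = 0.990), Slc25a24 (0.987), Mfge8 (0.978), P2ry6 (0.977), Blnk, Cd84, Nid1 and Calml4 (each 0.975), of 753 non-member genes that ranged by 2 log2 units or more. For Ly6d they were Mfge8 and Pqlc3 (both 0.990), P2ry6 (0.984), Tinag and Nid1 (both 0.983), Ccnd1 and Slc25a24 (both 0.978) and Col4a1 (0.976). Nid1 and Col4a1 are basement membrane genes, Ccnd1 is cyclin D1, P2ry6 is a receptor for UDP, and Mfge8 is a secreted protein that bridges dying cells to phagocytes. Mfge8, for example, read 7.14, 7.12 and 9.11 in shLFAR1+CCl4 and 9.49, 9.05 and 9.36 in NC+CCl4, and lay at 6.68 to 7.04 on oil. All of these r values measure mainly the split of 4 high against 8 low arrays, and they carry no test. Among the members, Afp ran with Ly6d at r = 0.993, with H19 at 0.943, with Gpc3 at 0.874, with Dlk1 at 0.678 and with Igf2 at 0.442.

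The other genes of the same pathways were taken from 7 lists of 125 genes, of which 111 were measured. In NC+CCl4 against NC, 21 rose and 7 fell, which is 25.2% called, against 13.1% of all features. The lists were chosen with earlier results of these data known, so nothing is read from the larger share. The 28 calls came to 14 without NC replicate 1 and 17 without NC replicate 2. The remaining 83 were not called, and the median change over the lists was 0.04 log2 units, against -0.049 over all features.

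Of 13 measured regulators of Afp, 1 fell and none rose. That was Nr5a2, a nuclear receptor that activates Afp, which changed by -0.56 ± 0.13 log2 units (adjusted p = 0.0149). The call was kept in 10 of 14 alternatives. The repressors of Afp were not called, with changes of -0.05 for Zhx2, 0.01 for Zbtb20 and 0.03 for Zfhx3. Foxa1, an activator of Afp in liver development that was picked out after its value was seen, was at -1.25 with an adjusted p of 0.0642. Albumin itself, the neighbour of Afp, was at 0.13 (adjusted p = 0.136), with values near the top of the scale, where a rise may not show.

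Of 16 genes of the IGF axis, 2 rose and 3 fell. Igfbp7, a secreted IGF-binding protein, rose by 1.45 (adjusted p = 0.000207), a call kept in all 14 alternatives, and Htra1, a protease that cuts IGF-binding proteins, rose by 0.65 (0.0416), a call kept in 6 of 14. Igfals, the partner of circulating IGF1, fell by 0.72 (0.00747) and Insr, the insulin receptor, fell by 0.67 (0.00326), and both calls were kept in 13 of 14. Igf2r, which clears Igf2, was at 0.32 and was not called. On the list of imprinted genes, whose alleles the array does not tell apart, 7 of 20 rose and none fell. They were led by Plagl1, a zinc-finger regulator of an imprinted network, at 2.44 (adjusted p = 0.000391). Gatm, which makes a creatine precursor, rose by 1.05 (0.0125), with the call kept in 13 of 14. Cdkn1c, a cell cycle inhibitor, rose by 0.92 (0.0380), a call kept in 6 of 14 alternatives. Dcn, a matrix proteoglycan, rose by 0.90 (0.00300). The calls of Plagl1 and Dcn were kept in all 14. Meg3, the neighbour of Dlk1, was at 0.23 and was not called.

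Of 22 listed Ly6 and uPAR family genes 17 were measured, and Ly6a, Ly6c1, Ly6c2, Ly6g and Cd59b were not. Among the 17, only Ly6e rose, by 3.25 log2 units (adjusted p = 0.000478). Cd59a, an inhibitor of complement, fell by 0.47 (0.0114). The Ly6e call was kept in all 14 alternatives and that of Cd59a in 11. Of 20 glypican, syndecan and heparan sulfate genes, 2 rose and 2 fell. Sdc3 (0.88, adjusted p = 0.0158) and Sdc1 (0.87, 0.0231) were higher in NC+CCl4 and Sdc4 (-1.09, 0.00242) and Sdc2 (-0.47, 0.0193) lower. The calls of Sdc3 and Sdc2 were kept in 10 of 14 alternatives, that of Sdc1 in 8 and that of Sdc4 in 13. Of 23 other fetal liver and progenitor markers, 9 rose and none fell. They were led by Golm1, a Golgi protein of liver cancer, at 3.00 (0.00239), Cd44, a hyaluronan receptor, at 2.89 (0.00283), Scd2, a fatty acid desaturase of fetal tissue, at 2.87 (0.00383) and Prom1, a progenitor surface marker, at 2.60 (0.0384). The first 3 of these calls were kept in 13 of 14 alternatives and that of Prom1 in 8.

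**Figure D4:**
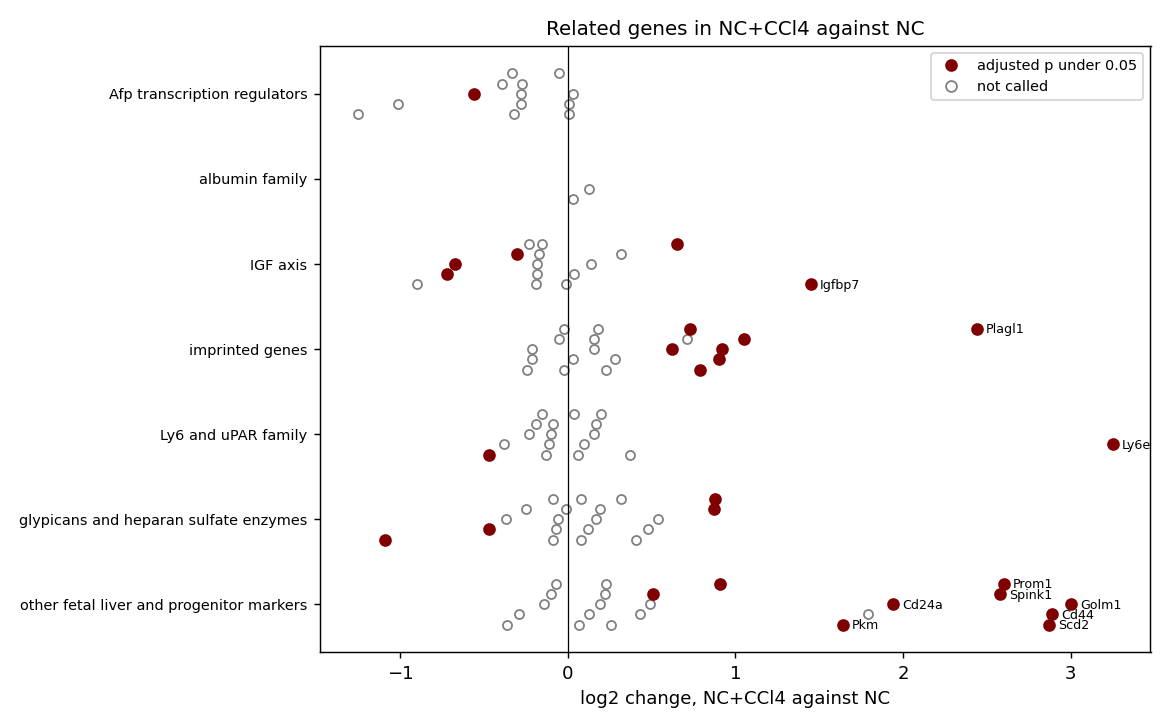
Log2 change in NC+CCl4 against NC of the 111 measured genes, by list. Filled points passed an adjusted p of 0.05, and the largest is Ly6e at 3.25.

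In shLFAR1+CCl4 against NC+CCl4, 4 of the 111 genes were called (3.6%, against 0.291% of all features), 2 higher and 2 lower. Here too nothing is read from the larger share, as the lists were chosen with earlier results known. Insr was higher by 0.75 log2 units (adjusted p = 0.0188) and Sdc4 by 1.11 (0.0213), while Igfbp7 fell by 0.94 (0.0188) and Plagl1 fell by 1.51 (0.0409). All 4 calls were kept with the replicate block. All 4 ended when shLFAR1+CCl4 replicate 1 or replicate 2 was left out, and all but that of Sdc4 also ended without NC+CCl4 replicate 1 or replicate 3. Without shLFAR1+CCl4 replicate 3, 18 of the 111 were called. None of the 111 was called in shLFAR1+CCl4 against shLFAR1, in shLFAR1 against NC or in the test of the difference between the CCl4 changes.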

How the data were processed

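The authors deposited log2 expression values for 45101 probe sets on 12 arrays, already summarized and normalized. The method is not given in the sources used here. The values run from 1.81 to 14.5 log2 units, every array averages 5.10 to 5.11, and no detection calls came with them. Probe sets were named through GEO's platform annotation: 34958 have 1 symbol, 932 several and 9211 none. Control probe sets were left out. Each of 18193 genes was read from its probe set with the highest mean over the 12 arrays, and the H19 probe set, annotated to 2 symbols, was kept as a feature of its own. limma 3.58.1 (R 4.3.3) was fitted to 4 group means with an intensity trend, and genes were called at an adjusted p under 0.05 (Benjamini-Hochberg) over 18194 features. The fit was tested on simulated data in which a gene had the same spread in every group. That test does not cover unequal spreads, such as those of Afp. No filter on low values was used. The authors' threshold of over 1.6-fold in a t-test was run as an alternative. Alternatives were another probe set rule, quantile normalization, array weights, no trend, a low-value filter, a replicate block, arrays of the compared groups alone and each array left out. The genes named from each list are the called genes with the largest changes, up to 4 a list and comparison, and for Afp and Ly6d the 8 most like in pattern. The members and lists were chosen with earlier results of these data known. Deviations of same-numbered arrays of shLFAR1+CCl4 and NC+CCl4 correlated weakly (0.129, 0.227 and 0.195). Differently numbered arrays of those groups had -0.236 to 0.092. In no other comparison did all same-numbered arrays lie above the rest. The labels name no pairing, and with 3 arrays a group these values do not establish one. The labels call the arrays biological replicates. Promoters and microRNAs are RefSeq's (GRCm38.p6). Python 3.11.15 was used for tables.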

Additional observations from a re-analysis of the deposited data

How the results depend on the processing

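Afp, Ly6d, H19 and Dlk1 kept the sign of their changes in the CCl4 comparisons under all alternatives run. Gpc3 turned to 0.03 in shLFAR1+CCl4 against NC+CCl4 and to 0.02 in the difference between the CCl4 changes without shLFAR1+CCl4 replicate 1. Igf2 in shLFAR1+CCl4 against shLFAR1 turned to -0.02 with array weights, -0.08 with averaged probe sets and -0.07 without shLFAR1 replicate 3. With array weights Afp, Ly6d and H19 came to 0.95, 0.57 and 0.85 in that comparison. The Afp change in NC+CCl4 against NC fell to 2.85 log2 units when all 5 probe sets were averaged. A filter on low values (highest group mean above 5.59) keeps 5 of the 6 genes, and Dlk1 falls below it. In shLFAR1 against NC, where no value was called, the sign turned for Afp (0.12 with averaged probe sets), Gpc3 (-0.01 with quantile normalization) and H19 (0.03 with array weights). Leaving out 1 array gave -0.25 to 0.13 for Afp, -0.04 to 0.15 for Ly6d, -0.11 to 0.04 for H19, -0.11 to 0.19 for Igf2 and -0.10 to 0.16 for Gpc3. Over all features, NC+CCl4 against NC had 280 calls with the methods' t-test after Benjamini-Hochberg and 1263 at its unadjusted threshold, and 1262 to 2518 with 1 array left out (1262 without NC replicate 1 and 1321 without NC replicate 2). shLFAR1+CCl4 against NC+CCl4 had 921 with array weights, 176 at the unadjusted threshold, and 0 with the t-test after adjustment or with only those arrays. It had 4 to 1328 with 1 array left out: 1328 without shLFAR1+CCl4 replicate 3, 546 without NC+CCl4 replicate 2, 34 and 27 without NC+CCl4 replicates 1 and 3, and 4 and 8 without shLFAR1+CCl4 replicates 1 and 2. shLFAR1+CCl4 against shLFAR1 had 375 with array weights, 240 and 0 with the t-test unadjusted and adjusted, 48 with only those arrays, and 23 to 90 with 1 array left out (34, 39 and 23 without shLFAR1 replicates 1, 2 and 3). shLFAR1 against NC had 31 at the unadjusted threshold, 3 with only those arrays, and 0 with any 1 array left out. The difference between the CCl4 changes had 393 with array weights, 2 with averaged probe sets, 7 with quantile normalization, and 0 to 584 with 1 array left out (584 without shLFAR1+CCl4 replicate 3, 164 without NC+CCl4 replicate 2). Of the listed genes, NC+CCl4 against NC had 5 with the adjusted t-test and 14 to 23 with 1 array left out. shLFAR1+CCl4 against NC+CCl4 had 15 with array weights, 1 with averaged probe sets, 7 and 0 with the t-test unadjusted and adjusted, 0 with only those arrays, and 0 to 18 with 1 array left out. shLFAR1+CCl4 against shLFAR1 had 4 with array weights, 1 at the unadjusted threshold and 1 with the replicate block. shLFAR1 against NC had 1 at the unadjusted threshold, and the difference between the CCl4 changes had 7 with array weights and 0 to 12 with 1 array left out. With the replicate block Cdkn1c lost its call in NC+CCl4 against NC (adjusted p = 0.0501), no other listed gene called there lost its own, and none of the 6 genes was called in shLFAR1 against NC. Leaving out an array pools the spread of all groups. The number of arrays limits the precision throughout, and the causes of these shifts were not tested.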

Other observations

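Genes whose values over the 12 arrays ran closest to the other members were looked up after their values were seen, and are given as a description. For H19 they were Calml4 (r = 0.975), Atp6v0d2, a subunit of the vacuolar proton pump (0.969), Ms4a6d (0.964) and Cd24a, a progenitor surface protein (0.962). For Gpc3 they were Timp1, an inhibitor of matrix proteases (0.987), Myof (0.986) and Cd14, a receptor for lipopolysaccharide (0.973). Timp1 read 4.30, 5.25 and 6.03 in shLFAR1+CCl4 and 5.35, 6.37 and 5.51 in NC+CCl4, against 3.95, 4.05 and 3.87 in shLFAR1 and 3.75, 4.19 and 4.37 in NC, so that shLFAR1+CCl4 replicate 2 lay above the oil arrays as it did for Gpc3. For Dlk1 they were Ptgis, prostacyclin synthase (0.905), Acta2, smooth muscle actin (0.895) and Gas6 (0.877). Acta2 read 6.21, 6.75 and 7.22 in shLFAR1+CCl4 and 7.11, 7.83 and 7.99 in NC+CCl4, against 5.81, 6.42 and 6.24 in shLFAR1 and 6.19, 6.23 and 6.16 in NC. For Igf2 the closest was Mgp (0.776).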
